A study of Cucumis sativus with 4 samples.

Results

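A set of 141 genes stood at higher levels in female flower buds of the cucumber (Cucumis sativus) mutant round leaf (rl) than in female buds of the wild type (WT), of 17480 genes listed in the expression table. The genes were chosen by their measured levels in the same 4 RNA sequencing libraries that are described here. Levels are in counts per 1000000 reads (CPM). Each gene had a mean of at least 5 CPM over the 2 rl libraries, this mean was at least 2 times the mean of the 2 WT libraries, and both rl values lay above both WT values. A further 10 identifiers were set aside by the same rule, and 0 of them met its thresholds. The genes that met the rule made up 0.807% of those listed. Differences between rl and WT are therefore given as a description of how far each gene moved, and no test of them is used as support.

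The rl buds and the WT buds were sampled from plants with the same source name, cucumber 649, of a Southern China type, and each genotype has 2 libraries. All plants were untreated and grown in a greenhouse. The labels give no bud stage, no number of plants per library and no origin of the rl plants, so the 2 libraries of a genotype may be technical rather than biological replicates. The design text of the series also mentions leaves, which are not analysed here. The rl libraries held 18345095 and 18097164 reads on the listed genes, and the WT libraries held 17792057 and 17549219.

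The title of the study ties round leaf to CsPID, a cucumber relative of PINOID. In Arabidopsis, PINOID is a protein kinase that phosphorylates PIN proteins, the carriers that export auxin from cells, and so sets the direction in which auxin flows. Auxin maxima mark the sites where leaves and flowers start to form, and Arabidopsis pinoid mutants form bare, pin-like stems and flowers with altered organs. A female cucumber bud carries its ovary below the petals, and that ovary grows into the fruit.

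The genes are known here only by identifier. The expression table pairs no identifier with a name or function, and 0 of the 17480 identifiers occur in the RefSeq gene table used here. No role is therefore assigned to any of the 141 genes. For the same reason gene lists for auxin, other hormones or cell division could not be formed, and the tissue label could not be set against marker genes. Identifiers of this form usually carry the chromosome as their first digit and then a number that runs along that chromosome, and they are read so here. In bulk buds, more cells of a type and more RNA per cell cannot be told apart for any gene below.

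Most of the raised genes stood below the median listed gene in rl level and moved by little more than the minimum the rule asked for. The rl means of the 141 genes ran from 5.16 to 674 CPM with a median of 15.3 CPM, and their WT means ran from 0.199 to 248 CPM with a median of 5.19 CPM. The median rl mean over all listed genes was 26.7 CPM. The ratio of mean CPM, rl over WT, had a median of 2.41 over the raised genes, against 0.996 over all listed genes. It was under 2.5 for 81 genes, between 2.5 and 3 for 22, between 3 and 4 for 24, between 4 and 8 for 9, and at least 8 for 5. Together the 141 genes took 0.580% and 0.606% of the reads in the rl libraries, against 0.215% and 0.263% in the WT libraries.

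**Figure D1:**
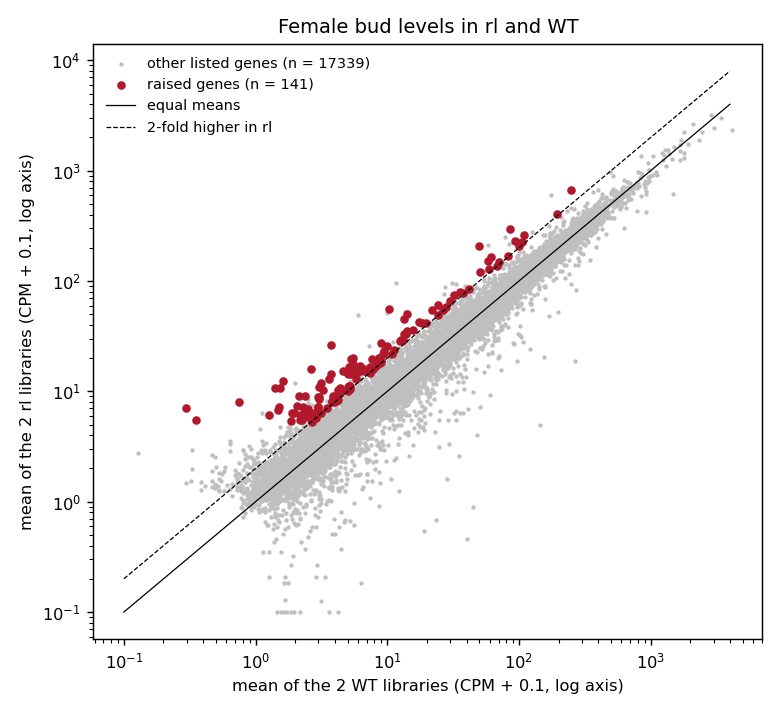
Mean level of each listed gene in the 2 rl libraries (vertical axis) against the 2 WT libraries (horizontal axis), in CPM + 0.1 on log axes; red points are the 141 raised genes and grey points the other 17339. The red points lie along and above the dashed 2-fold line, most of them close to it, and 3 of them lie far to the left with a WT mean under 1 CPM.

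The share of listed genes that met the rule was larger at low levels. Among genes with an rl mean of 5 to 10 CPM, 47 of 1867 (2.52%) were raised, and among those of 10 to 20 CPM, 46 of 2769 (1.66%). The share was 0.507% (23 of 4539) from 20 to 50 CPM, 0.343% (10 of 2918) from 50 to 100 CPM and 0.569% (15 of 2635) above 100 CPM. The median ratio changed little over these levels and lay between 2.20 and 2.49. The largest ratio fell with level, to 4.12 above 100 CPM, against 35.2 from 5 to 10 CPM.

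By chromosome, the raised genes were 31 on chromosome 1, 22 on chromosome 2, 25 on chromosome 3, 14 on chromosome 4, 17 on chromosome 5, 18 on chromosome 6 and 14 on chromosome 7. As a share of the listed genes, this is highest on chromosome 1 (1.21% of 2559) and lowest on chromosome 6 (0.621% of 2898). None of the 83 genes without a chromosome met the rule.

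**Figure D2:**
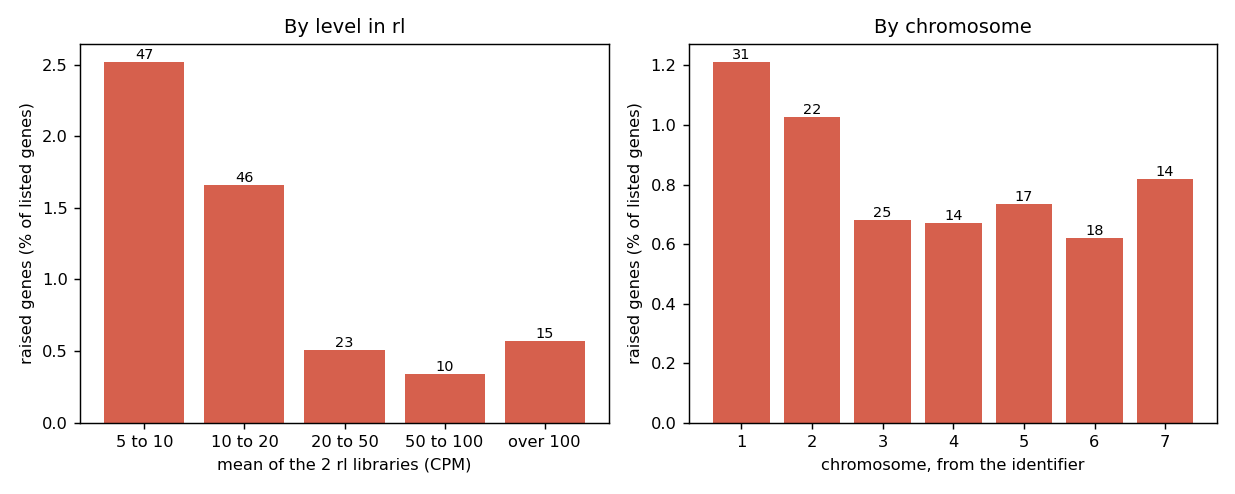
Raised genes as a percentage of the listed genes, by mean level in the 2 rl libraries (left) and by chromosome (right); the number above each bar is the count of raised genes. The share is 2.52% from 5 to 10 CPM and under 0.6% in each bin above 20 CPM, while chromosomes range from 0.621% to 1.21%.

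The widest differences belonged to transcripts that were close to absent in WT buds. Csa1G618390, on chromosome 1, had 7.80 and 6.19 CPM in the rl libraries, from 143 and 112 reads, against 0.112 and 0.285 CPM in the WT libraries, from 2 and 5 reads. Its ratio of summed reads per library size was 35.3, with a 95% exact binomial interval of 16.9 to 88.8. This interval and those for the next 2 genes cover counting error only. They do not allow for the choice of the genes on these same values, and are not used as support. Csa2G379360, on chromosome 2, had 8.34 and 7.35 CPM in the rl libraries, against 0.618 and 0.684 CPM in the WT libraries. Both genes stood under 1 CPM in both WT libraries, and their 2 rl values were within 1.3-fold of each other. The ratio of summed reads of Csa2G379360 was 12.1 (95% exact binomial interval 7.88 to 19.3).

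The third such gene, Csa3G151480 on chromosome 3, was uneven between the rl libraries. It had 2.62 and 8.12 CPM in the rl libraries, against 0.112 and 0.399 CPM in the WT libraries, a ratio of summed reads of 21.0 (95% exact binomial interval 10.8 to 46.6). These 3 genes passed a level of 1 CPM only in rl libraries. Of the others, 138 had at least 1 CPM in at least 1 WT library and 136 of them in both.

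Of the other genes with the highest ratios, Csa1G033050 had 9.65 and 11.8 CPM in the rl libraries, against 1.52 and 1.08 CPM in the WT libraries, a ratio of 8.24. Csa7G037610, the most abundant of this group apart from Csa6G358680, had 31.0 and 21.5 CPM in the rl libraries, against 4.61 and 2.74 CPM in the WT libraries, a ratio of 7.15. Csa1G009870 had 18.4 and 13.2 CPM in the rl libraries, against 2.14 and 2.96 CPM in the WT libraries, a ratio of 6.20. In these 3 genes the lower rl library was at least 4 times the higher WT library.

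Csa3G778180 and Csa3G810500, both on chromosome 3, had high ratios that leaned on rl replicate 1. Csa3G778180 had 20.7 and 4.09 CPM in the rl libraries, against 1.91 and 1.14 CPM in the WT libraries. Csa3G810500 had 16.5 and 4.70 CPM in the rl libraries, against 1.35 and 1.54 CPM in the WT libraries. The groups did not overlap for either gene, as the rule required, but the rl libraries stood 5.07-fold and 3.52-fold apart. Csa6G358680 was uneven in both genotypes, with 73.3 and 38.7 CPM in the rl libraries, against 15.7 and 4.62 CPM in the WT libraries.

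**Figure D3:**
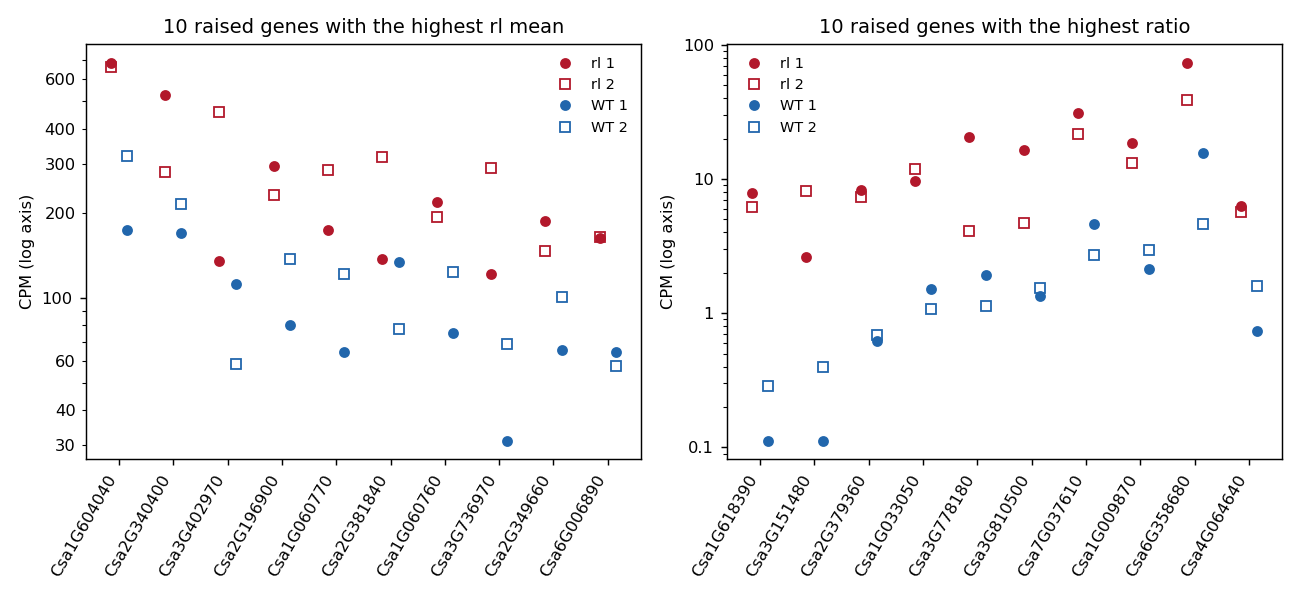
CPM in each library (log axis) for the 10 raised genes with the highest rl mean (left) and the 10 with the highest ratio of rl to WT means (right); red marks are rl, blue marks WT, filled circles replicate 1 and open squares replicate 2. All red marks lie above the blue marks of the same gene, as the rule required; Csa6G006890 has nearly equal rl values, while those of Csa3G402970 lie 3.40-fold apart.

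Among abundant transcripts, Csa1G604040 on chromosome 1 was the highest of the 141. It had 685 and 663 CPM in the rl libraries, against 174 and 321 CPM in the WT libraries, a mean of 674 ± 15.6 CPM in rl and 248 ± 104 CPM in WT (SD, n = 2 each). Its rl libraries were close together and its WT libraries were not. Csa6G006890 on chromosome 6 was even within both genotypes, with 164 and 164 CPM in the rl libraries, against 64.2 and 57.4 CPM in the WT libraries, a ratio of 2.70. Csa2G196900 on chromosome 2 had 294 and 232 CPM in the rl libraries, against 80.2 and 137 CPM in the WT libraries, a ratio of 2.42.

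Other abundant genes were less even. Csa3G402970, on chromosome 3, had 135 and 459.8 CPM in the rl libraries, against 112 and 58.3 CPM in the WT libraries. Csa2G381840, on chromosome 2, had 138 and 318 CPM in the rl libraries, against 134 and 78.0 CPM in the WT libraries. In these genes rl replicate 1 was only 1.21 and 1.03 times the higher WT library, and the high rl mean came from rl replicate 2. Csa3G736970, on chromosome 3, was also higher in rl replicate 2, with 122 and 289 CPM in the rl libraries, against 31.2 and 68.5 CPM in the WT libraries. Csa2G340400 leaned the other way, with 527 and 280.5 CPM in the rl libraries, against 169.9 and 217 CPM in the WT libraries. Csa2G349660 had 189 and 147 CPM in the rl libraries, against 65.3 and 101 CPM in the WT libraries, a ratio of 2.02 that is close to the threshold.

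Several genes of middle level had wide gaps between the genotypes. Among the 77 raised genes with a WT mean of at least 5 CPM, the widest gap between the lower rl and the higher WT library, 2.55, was that of Csa6G006890. The next widest, 2.46, was that of Csa6G358680, although it was uneven in both genotypes. Csa3G865440 had 19.6 and 13.5 CPM in the rl libraries, against 5.62 and 4.50 CPM in the WT libraries. Csa3G076580 had 56.9 and 42.6 CPM in the rl libraries, against 10.3 and 17.8 CPM in the WT libraries. For both genes even the lower rl library was 2.40 times the higher WT library. Csa4G012390 had 19.95 and 15.03 CPM in the rl libraries, against 6.69 and 4.10 CPM in the WT libraries. Csa3G190380 had 31.2 and 23.0 CPM in the rl libraries, against 6.97 and 10.9 CPM in the WT libraries. Csa5G636630 had 13.6 and 18.7 CPM in the rl libraries, against 4.83 and 6.61 CPM in the WT libraries. The gaps of these last 3 genes were 2.25, 2.12 and 2.05. Csa5G623670 reached 13.0 and 27.1 CPM in the rl libraries, against 4.10 and 6.61 CPM in the WT libraries, a gap of 1.96.

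Over all 141 genes, the lower rl library was at least 2 times the higher WT library for 31 and at least 1.5 times for 79. For 11 genes it was under 1.1 times, and in 9 of these the 2 rl libraries stood at least 2-fold apart. That link follows in part from the rule, since means 2-fold apart with so small a gap need uneven libraries in rl or WT. An example is Csa2G179730, chosen after its values were seen, with 61.9 and 239 CPM in the rl libraries, against 60.5 and 56.2 CPM in the WT libraries. Values that do not overlap between the genotypes, with rl above, were found for 18.3% of all listed genes at any size of difference.

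The 2 rl libraries were often far apart in this set, in the same values that chose the genes. The 2 rl libraries stood at least 2-fold apart in 43 of the 141 genes (30.5%), against 625 of the 14728 listed genes with an rl mean of at least 5 CPM (4.24%). The count was 92 among the 199 genes that met the rule without WT replicate 1 and 71 among the 297 without WT replicate 2. It was 23 among the 94 genes at a minimum rl mean of 10 CPM. In 26 of the 43 genes rl replicate 2 was the higher one and in 17 it was rl replicate 1. The 2 WT libraries stood at least 2-fold apart in 24 of the 141 genes (17.0%), against 243 of the 14728 (1.65%) and 596 of all 17480 listed genes (3.41%). The 14728 are not matched on WT level, since they were filtered on the rl mean and 64 of the 141 had a WT mean under 5 CPM. Whether the spread between libraries of a genotype played a part in which genes met the rule was not tested. Among the 196 genes lower in rl by the mirrored rule, the rl libraries stood 2-fold apart in 38 (19.4%) and the WT libraries in 42 (21.4%).

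Neither rl library was the higher one throughout. Replicate 1 was higher in 72 of the raised genes and replicate 2 in 69. In WT buds, replicate 2 was the higher library in 89 of the 141 genes (63.1%), so that WT replicate 1 was more often the farther one from rl. Over all listed genes WT replicate 2 was higher in 53.8%. Among the 196 genes lower in rl by the mirrored rule, WT replicate 1 was the higher WT library in 160. There too it was more often the farther one from rl. In 40 of the raised genes the rl libraries lay within 1.3-fold of each other.

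**Figure D4:**
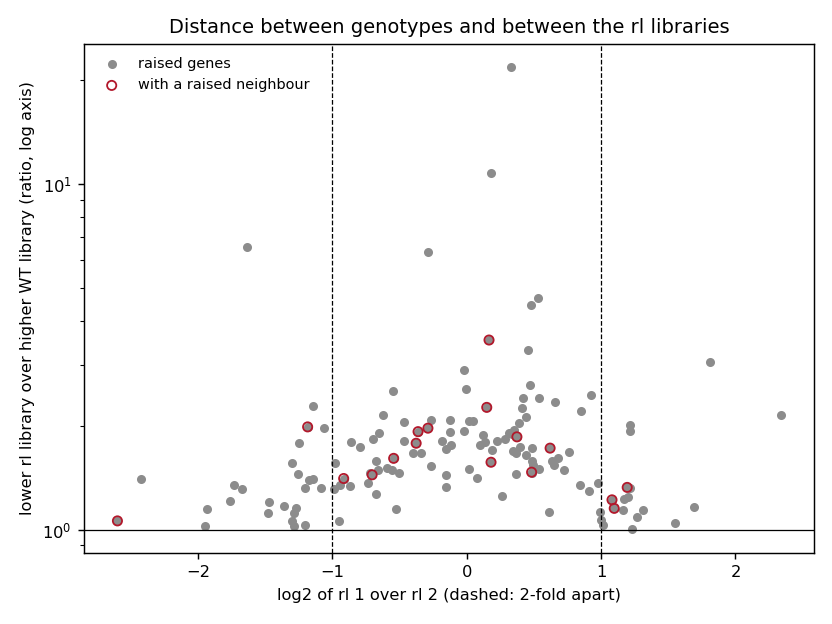
For each of the 141 raised genes, the lower rl library over the higher WT library (vertical, log axis) against the log2 of rl replicate 1 over rl replicate 2 (horizontal); dashed lines mark 2-fold, and red circles mark genes with a raised neighbour. The 43 genes beyond the dashed lines lie mostly at gaps under 1.5 (33 of 43), while 29 of the 98 genes between the lines do. Both axes use the same 2 rl values, so at a given ratio of means a wider spread in rl lowers the gap by arithmetic.

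The set depended on single libraries. Without rl replicate 1, 99 of the 141 genes still met the rule, and 158 other genes did too. Without rl replicate 2 these numbers were 92 and 231, without WT replicate 1 they were 97 and 102, and without WT replicate 2 they were 124 and 173. Fewer values then have to clear the thresholds, which admits more genes. A subset of 40 genes (28.4% of the 141) met the rule whichever library was left out. The same rule was applied again to the same libraries, which favours genes with wider differences, so the subset is not independent support. These 40 had a median ratio of 3.23 and included Csa1G618390, Csa2G379360, Csa1G033050, Csa7G037610, Csa1G009870, Csa1G604040 and Csa6G006890. Csa6G358680 and Csa3G736970, uneven between the rl libraries, were also among the 40. The subset did not include Csa3G402970, Csa2G381840, Csa3G778180, Csa3G810500 or Csa3G151480. Csa3G778180, Csa3G810500 and Csa3G151480 missed the minimum of 5 CPM without their higher rl library, with 4.09, 4.70 and 2.62 CPM in the other. Their lower rl library was still 2.14, 3.05 and 6.56 times the higher WT library.

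Across all 17480 genes the limma fit on log2(CPM + 1) called 0% of genes higher in rl at an adjusted p below 0.05, and so 0 of the 141. The edgeR fit on recovered reads also called 0% and 0 of the 141. At an unadjusted p below 0.05, 120 of the 141 passed in limma and 124 in edgeR, of 640 and 699 genes on the higher side in all. The lowest limma adjusted p of any raised gene was 0.0778, shared by Csa1G618390, Csa2G379360 and Csa6G006890, with log2 differences of 2.73 (SE 0.24), 2.42 (SE 0.22) and 1.42 (SE 0.13). Without rl replicate 2 limma called 59 genes higher in rl, 17 of them raised genes, and without rl replicate 1 it called 4, of which 2 were raised genes. Csa6G006890 had limma adjusted p of 0.0475 without rl replicate 1 and 0.0302 without rl replicate 2, but up to 0.383 (without WT replicate 1) over the limma alternatives. DESeq2 called 0.566% of all genes higher in rl, and 65 of the 141. Since the genes were chosen on this same difference, these counts do not support it.

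Raised genes were found beside one another along the chromosomes. Of the 141, 17 (12.1%) had a raised gene as the next or the previous listed identifier, in 3 runs of 3 genes and 4 runs of 2. Of the 17339 other listed genes, 259 (1.49%) had a raised gene beside them. Among the 196 genes lower in rl by the mirrored rule, 18 (9.18%) had another of the 196 beside them. The count of 17 moved when more genes met the rule, to 28 of 257 genes without rl replicate 1 and 50 of 323 without rl replicate 2. It was 33 of 297 without WT replicate 2 and 23 of 199 without WT replicate 1. With a minimum rl mean of 1 CPM it was 43 of 250 genes, and with 10 CPM it was 7 of 94. Identifiers listed as consecutive may have unlisted genes between them, and neighbours that are near-identical copies could share reads, which was not checked because no sequence was at hand.

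One run was Csa6G446380, Csa6G446390 and Csa6G446400 on chromosome 6. Csa6G446380 had 98.3 and 143 CPM in the rl libraries, against 39.0 and 61.1 CPM in the WT libraries. Csa6G446390 had 28.6 and 37.1 CPM in the rl libraries, against 11.6 and 16.1 CPM in the WT libraries. Csa6G446400 had 54.0 and 65.9 CPM in the rl libraries, against 21.1 and 27.5 CPM in the WT libraries. The 3 genes ran in parallel over the 4 libraries, with replicate 2 the higher one in both genotypes and ratios of 2.41, 2.37 and 2.47. The next listed gene, Csa6G446410, had a ratio of 1.37 and the one before the run, Csa6G446370, a ratio of 1.01.

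The run of Csa2G023900, Csa2G023910 and Csa2G023920 on chromosome 2 was also parallel, but uneven between replicates. Csa2G023900 had 21.6 and 10.1 CPM in the rl libraries, against 3.82 and 8.78 CPM in the WT libraries. Csa2G023910 had 19.4 and 9.17 CPM in the rl libraries, against 2.30 and 7.52 CPM in the WT libraries. Csa2G023920 had 12.3 and 5.36 CPM in the rl libraries, against 1.80 and 4.05 CPM in the WT libraries. In all 3 genes rl replicate 1 was more than 2 times rl replicate 2, and WT replicate 2 more than 2 times WT replicate 1, so that rl replicate 2 and WT replicate 2 were close.

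Of the 4 listed genes nearest to this run, 3 shared its high rl replicate 1. Csa2G023880, just before it, had 6.98 and 1.77 CPM in the rl libraries, against 1.85 and 2.17 CPM in the WT libraries. Csa2G023940 and Csa2G024440, just after it, were abundant. Csa2G023940 had 984 and 300.4 CPM in the rl libraries, against 405 and 327 CPM in the WT libraries. Csa2G024440 had 1434 and 492 CPM in the rl libraries, against 538 and 446 CPM in the WT libraries. None of these 3 met the rule, and rl replicate 2 lay below a WT library in each. Csa2G023880 also missed the minimum level, with an rl mean of 4.37 CPM. Csa2G023940 and Csa2G024440 also missed the 2-fold threshold, with ratios of 1.75 and 1.96. The fourth gene, Csa2G023860, did not share the pattern, with 34.6 and 31.8 CPM in the rl libraries, against 31.7 and 33.1 CPM in the WT libraries. Csa2G023850, slightly before them and itself a raised gene, went the other way between the rl libraries, with 3.38 and 7.79 CPM in rl against 2.53 and 2.56 CPM in WT.

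On chromosome 1, the neighbours Csa1G060760 and Csa1G060770 were both abundant. Csa1G060760 had 220.2 and 194 CPM in the rl libraries, against 75.3 and 124 CPM in the WT libraries. Csa1G060770 had 175 and 285 CPM in the rl libraries, against 64.6 and 121 CPM in the WT libraries. WT replicate 2 was the higher WT library for both genes, while the order of the rl libraries differed. The other run on that chromosome, Csa1G065420, Csa1G065920 and Csa1G065930, was low, with 3.92 to 7.41 CPM in the rl libraries against 1.03 to 2.96 CPM in the WT libraries. In it Csa1G065420 was higher in rl replicate 2 and the other genes in rl replicate 1.

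Chromosome 4 held 2 pairs. Csa4G064640 had 6.32 and 5.64 CPM in the rl libraries, against 0.731 and 1.60 CPM in the WT libraries, a ratio of 5.14 that was among the 10 highest. Its neighbour Csa4G064650 had 7.90 and 18.0 CPM in the rl libraries, against 2.98 and 3.99 CPM in the WT libraries, a ratio of 3.71. The genes on either side of this pair, Csa4G064630 and Csa4G064660, had ratios of 1.23 and 0.839. The second pair, Csa4G016490 and Csa4G016510, reached 4.25 to 6.80 CPM in the rl libraries against 1.42 to 2.75 CPM in the WT libraries. In both pairs the first gene was higher in rl replicate 1 and the second in rl replicate 2.

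The pair on chromosome 5 also differed in the order of its rl libraries. Csa5G593440 had 2.56 and 15.5 CPM in the rl libraries, against 2.42 and 1.65 CPM in the WT libraries, so that rl replicate 1 was at the WT level. Csa5G594440 had 14.8 and 10.6 CPM in the rl libraries, against 4.16 and 7.24 CPM in the WT libraries. The raised genes Csa5G636550, Csa5G636600 and Csa5G636630 are closer in identifier number than this pair, but other listed genes lie between them. Csa5G636550 had 12.4 and 5.36 CPM in rl, against 1.91 and 2.68 CPM in WT. Csa5G636600 had 12.6 and 23.0 CPM in rl, against 7.92 and 9.40 CPM in WT. Over the 10 pairs of consecutive raised genes, the 2 rl libraries stood in the same order in 5 and the 2 WT libraries in 7. Over all 17472 consecutive pairs of listed genes, these shares were 52.8% and 52.3%.

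**Figure D5:**
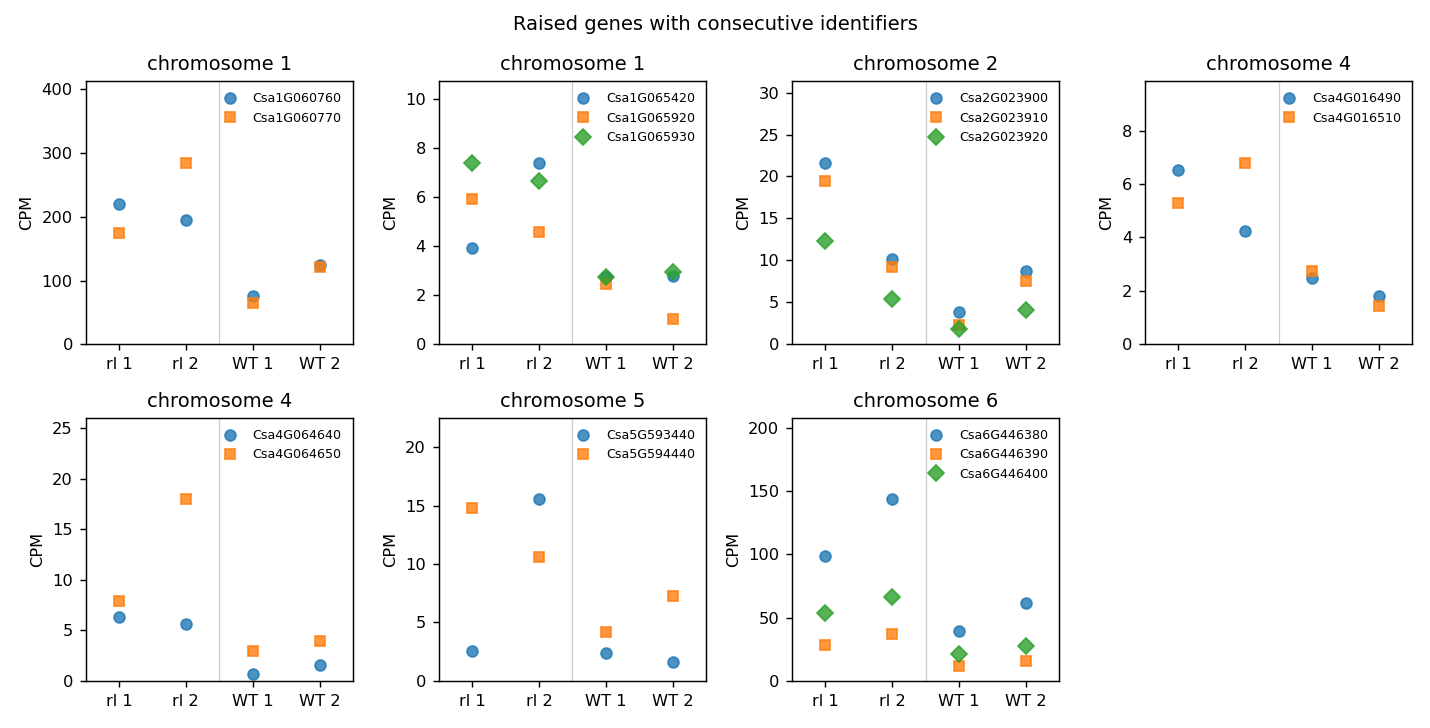
CPM in the 2 rl and the 2 WT libraries for the 17 raised genes that are consecutive among the listed identifiers, 1 panel per run. The genes of the runs on chromosome 6 and chromosome 2 keep the same order of the rl libraries and of the WT libraries, while in each of the other runs at least the rl order differs between genes.

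Genes beside a raised gene that did not meet the rule themselves were also more often higher than lower in rl. Of these 259 genes, 150 (57.9%) had a higher mean in rl, against 48.6% of the 17080 listed genes that were neither raised nor beside a raised gene. Their median ratio was 1.04, against 0.994 for those other genes. A ratio of at least 1.5 was found for 36 of the 259 (13.9%) and for 852 of the 17080 (4.99%). One of them, Csa2G196890, is the identifier just before the abundant Csa2G196900 and fell just short of the rule, with 6.92 and 7.07 CPM in the rl libraries, against 2.75 and 4.27 CPM in the WT libraries. These shares describe the 4 libraries, and neighbouring genes are not independent of one another.

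The thresholds divided genes with nearly equal values. Just inside the 2-fold threshold were Csa3G681160 and Csa1G240590, with ratios of 2.002 each. Just outside it were Csa1G660200 and Csa2G196890, with ratios of 1.995 and 1.992. Csa1G240590 and Csa1G065920 were also just inside the minimum level, with rl means of 5.16 and 5.26 CPM, and Csa1G160590 and Csa1G384030 were just outside it, with 4.88 and 4.72 CPM.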

How the data were processed

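Per the labels' protocols, Trizol was used to extract total RNA of female buds, and libraries were read on an Illumina machine. HISAT (a spliced aligner) and HTSeq (a read counter) are named in the submitters' processing notes. Neither the tools' versions nor the build, annotation or strand setting is stated (not given in the sources used here). The authors deposited 1 table of CPM values, relative to the reads on its 17480 genes. Every listed gene has at least 1.01 CPM in 2 or more of the 4 libraries. All values (100%) equal a whole number of reads to within 1e-06 when divided by the lowest nonzero value of their library, so whole reads were recovered; 3 reads correspond to 0.164 to 0.171 CPM.

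The genes and the choices were made with earlier results of these data known. Across all genes, limma 3.58.1 (R 4.3.3) was run on log2(CPM + 1), which understates changes of low genes, with an eBayes trend, genotype as the only term, a filter of 1 CPM in 2 libraries that removed no gene, and Benjamini-Hochberg adjustment. Alternatives on the recovered reads were DESeq2 1.42.0 and the quasi-likelihood test of edgeR 4.0.16 with TMM. The tests were also run on simulated counts with known changes, and that run is not used as support for any result here. The other alternatives were pseudocounts, filters, rescaling, the replicate block, other minimum levels, other definitions of neighbours and leaving out each library. Ratios are of mean CPM unless summed reads are named.

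Members named were the 10 with the highest rl mean, the 10 with the highest ratio, the 10 with the widest gap at a WT mean of at least 5 CPM, all consecutive members and those nearest the thresholds. Csa2G179730, Csa2G023850, Csa5G636550 and Csa5G636600 were named in addition and are not among the 42 named genes counted below. Depth limits low genes most: the lowest rl value rests on 41 reads.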

Additional observations from a re-analysis of the deposited data

How the results depend on the processing

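Rescaling by the median of ratios and by TMM factors each gave 147 raised genes, 19 of them consecutive and 47 at least 2-fold apart between the rl libraries. A minimum rl mean of 1 CPM in place of 5 gave 250 genes with 43 consecutive, and a minimum of 10 CPM gave 94 genes with 7 consecutive and 23 at least 2-fold apart between the rl libraries; lower or higher minimums admit more or fewer genes by construction. Leaving out 1 library gave 199 to 323 genes, 23 to 50 of them consecutive. The 2-fold apart count was 92 of 199 genes without WT replicate 1 and 71 of 297 without WT replicate 2. Counting neighbours by identifier numbers at most 10 or at most 100 apart gave 12 and 18. At most 100 apart, Csa1G065420, Csa5G593440 and Csa5G594440 dropped out. Csa2G023850, Csa5G636550, Csa5G636600 and Csa5G636630 came in. The limma call of 0 genes higher in rl also stood at 0 with pseudocounts of 0.25 and 5, without a filter, with a filter of 5 CPM, with rescaling and in edgeR. DESeq2 called 99 genes, 65 of them raised genes; the cause was not tested. Leaving out 1 library in limma gave 0 to 59 genes and 0 to 17 raised genes, the highest without rl replicate 2; a lone library is then assumed to vary like the other pair. The replicate block gave 32 genes, 29 of them raised genes; the labels do not say that the numbers pair libraries, and the replicate differences of the genotypes had a correlation of 0.182 across genes over 2 pairs. None of the log2 differences of the 42 named genes reversed, a direction that the choice of genes fixes; in 56 of 496 alternative values a named gene passed the threshold that it missed in limma. Depth limits low genes most.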
